A study of Mus musculus with 6 samples.

Results

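The genes described here encode the enzymes that cut the extracellular matrix and the proteins that hold those enzymes in check. They were taken from the deposited expression table by gene symbol: all Mmp, Adamts and Adamtsl genes that carry a number, and Timp1 to Timp4. This gave 47 of 27734 genes, made up of 19 Mmp, 19 Adamts, 5 Adamtsl and 4 Timp genes. Their level is given in FPKM, fragments scaled to gene length and library size. Averaged over the 6 libraries, 25 of the genes reached 1 FPKM or more and were tested, and the other 22 lay below that level.

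The libraries were made from total RNA of chondrocytes, the cells that build cartilage, isolated from the ribs of E18.5 mouse embryos. Wild type was represented by 3 libraries, and 3 came from conditional knockouts carrying floxed Jab1 alleles and a Col2a1-Cre transgene. The Col2a1 promoter drives Cre recombinase in cartilage cells, so cells of other origin in the preparation keep Jab1, and the labels do not give the alleles of the wild-type embryos or say whether a library pools several embryos. Jab1 is the product of Cops5 and the catalytic subunit of the COP9 signalosome, which takes the ubiquitin-like protein Nedd8 off cullin ligases, and the 2 genotypes were compared. Cells were released with pronase and collagenase, the latter overnight, and were collected without culture, per the labels' protocols. Libraries are named here by genotype and column number, and values listed for a genotype stand in the order of columns 0, 1 and 2.

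Matrix metalloproteinases (MMPs) are zinc-dependent enzymes that are made as inactive proenzymes and between them cut collagens, gelatin and proteoglycans. ADAMTS enzymes are related secreted proteases with thrombospondin repeats, some of which cut aggrecan or trim procollagen, while the ADAMTS-like proteins share the repeats but have no protease domain. TIMPs are small secreted inhibitors that block the active site, and the product of Timp3 stays bound in the matrix and inhibits ADAMTS enzymes as well as MMPs. In the growth plate these proteins take part in matrix turnover and in the replacement of hypertrophic cartilage by bone.

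Column totals ranged from 571180 to 631534 FPKM. Cops5 fell from 40.7 ± 1.39 to 17.4 ± 0.534 FPKM (SD, n = 3 here and below, limma adjusted p = 6.5e-04). Of 10 chondrocyte markers tested 2 fell (Comp and Matn3) and none rose, with a median log2 fold change of -0.48. Sox9 was at 75.7 ± 1.79 and 55.3 ± 15.9 FPKM and Acan at 965 ± 85.2 and 823 ± 604 FPKM, neither passed, and Col2a1 was not analysed here. Y-linked RNA differed between the groups, with Ddx3y at 0.0281 to 0.450 FPKM in wild-type and 7.78 to 46.1 FPKM in mutant libraries. Xist was at 63.1 to 65.9 FPKM in wild-type libraries and at 0.0176 and 0.0244 FPKM in mutant columns 1 and 2. Mutant column 0 held Xist at 37.3 FPKM beside Y-linked RNA. These RNAs mark the sex of embryos, so sex and genotype cannot be told apart here. Markers of red cells were lower in mutant libraries, with all 5 tested genes falling and a summed level of 196 to 221 FPKM against 14.9 to 49.4 FPKM. Of these Alas2 reached a mean of 1 FPKM through the wild-type libraries alone. Macrophage markers were mixed, and none of the 7 tested passed. Lyz2 was lower (31.1 ± 12.8 and 7.57 ± 4.16 FPKM) and Cd14 higher (2.00 ± 0.279 and 4.35 ± 1.69 FPKM), both without overlap between groups. The 10 markers of fibroblasts, perichondrium and tendon summed to 966 to 1290 FPKM against 709 to 1218 FPKM, with 1 of 8 tested falling and none rising. The gene that fell, Lum, from 625 ± 34.4 to 343 ± 66.5 FPKM, held the largest part of that sum. The median log2 fold change of the 8 was 0.31, so the sum and the single genes differed in direction. The part of these cells in the changes below was not tested. In bulk RNA, fewer cells of a type and less RNA per cell cannot be told apart. The title of wild-type column 0 carries a later date than the others, and the labels do not say what the date marks.

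Some MMP genes that are close neighbours differed in level, and promoter sequences of 4 of them are printed first. Whether these sequences have a part in the differences was not tested. Of the members, 6 lie side by side within 309 kb of mouse chromosome 9 (mm10, 7272514 to 7581885), in the order Mmp13, Mmp12, Mmp3, Mmp10, Mmp8 and Mmp27, all on the forward strand. The 150 bases before the RefSeq start site of 4 of them follow (RefSeq, GRCm38.p6, forward strand, 5′ to 3′), with capitals for matches to TGANTCA, the binding motif of AP-1, the dimers of Jun and Fos proteins, and to TATAAA, the TATA box.
Mmp13, chr9:7272364-7272513: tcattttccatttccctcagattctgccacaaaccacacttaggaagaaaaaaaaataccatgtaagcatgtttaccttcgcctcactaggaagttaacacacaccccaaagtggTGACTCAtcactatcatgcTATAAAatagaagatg
Mmp3, chr9:7445672-7445821: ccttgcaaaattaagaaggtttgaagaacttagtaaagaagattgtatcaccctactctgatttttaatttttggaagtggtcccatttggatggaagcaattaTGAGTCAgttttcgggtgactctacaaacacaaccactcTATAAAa
Mmp10, chr9:7502192-7502341: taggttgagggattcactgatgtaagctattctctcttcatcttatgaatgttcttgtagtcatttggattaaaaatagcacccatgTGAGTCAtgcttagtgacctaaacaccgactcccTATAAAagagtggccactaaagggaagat
Mmp8, chr9:7558279-7558428: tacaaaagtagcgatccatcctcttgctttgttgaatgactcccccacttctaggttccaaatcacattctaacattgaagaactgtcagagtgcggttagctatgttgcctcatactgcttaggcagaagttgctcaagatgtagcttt

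In these windows the AP-1 letters of Mmp13, Mmp3 and Mmp10 begin 35, 46 and 63 bases before the start site. The TATAAA letters of the same genes begin 16, 7 and 29 bases before it, and whether they act as a TATA box was not tested. The stretch of Mmp8 holds neither motif on either strand. RefSeq promoter windows of 300 bases, which run to 50 bases past the start site, were matched for 32 members (34 windows), and TGANTCA was found in 4 of them, with both motifs searched on both strands. All 4 belong to the chromosome 9 group: Mmp3, Mmp10, Mmp12 (in 1 of its 2 windows) and Mmp13. Of the 34 member windows 11.8% held TGANTCA and 23.5% held TATAAA, against 7.81% and 13.6% of all 32851 such windows. The window of Mmp8 held TATAAA on the opposite strand. That match begins 3 bases before the start site and runs past the end of the printed stretch. Of the 4 genes with TGANTCA, Mmp3 rose, Mmp13 did not pass, and Mmp10 and Mmp12 were under 1 FPKM. The windows of Timp3, Timp2 and Adamtsl3, which rose as well, held no TGANTCA. No window was matched for Mmp2, which also rose. The window of Mmp27, in the chromosome 9 group, held neither motif. A match of letters says nothing of whether a factor was bound.

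Across the 25 tested members 5 rose in mutant chondrocytes, 1 fell and 19 did not pass. The risers were Timp3 and Timp2 among the inhibitors, Mmp3 and Mmp2 among the enzymes, and Adamtsl3, and the gene that fell was Mmp8. Over all 14012 genes tested 6.07% passed, 3.48% upward and 2.59% downward. Mmp3 reached the mean of 1 FPKM through the mutant libraries and Mmp8 and Adamts7 through the wild-type libraries alone. Adamts17 reached it through mutant column 0 (1.82 FPKM), with mutant columns 1 and 2 at 0.736 and 0.822 FPKM. The counts over tested members are therefore descriptions. Among the 21 members with a mean of at least 1 FPKM in both groups 4 rose and none fell, against 3.26% and 2.5% of all genes of that kind, and the median log2 fold change was 0.23 against -0.0045 for all such genes. By limma without adjustment, p was under 0.05 for 6 of the 21 that were higher and 3 that were lower, against 12.5% and 12% of all such genes. Over all 25 tested members, those that passed the limit through 1 group included, the groups did not overlap in 6 that were higher and 7 that were lower, a pattern that 16.3% and 15.9% of all tested genes showed.

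**Figure D1:**
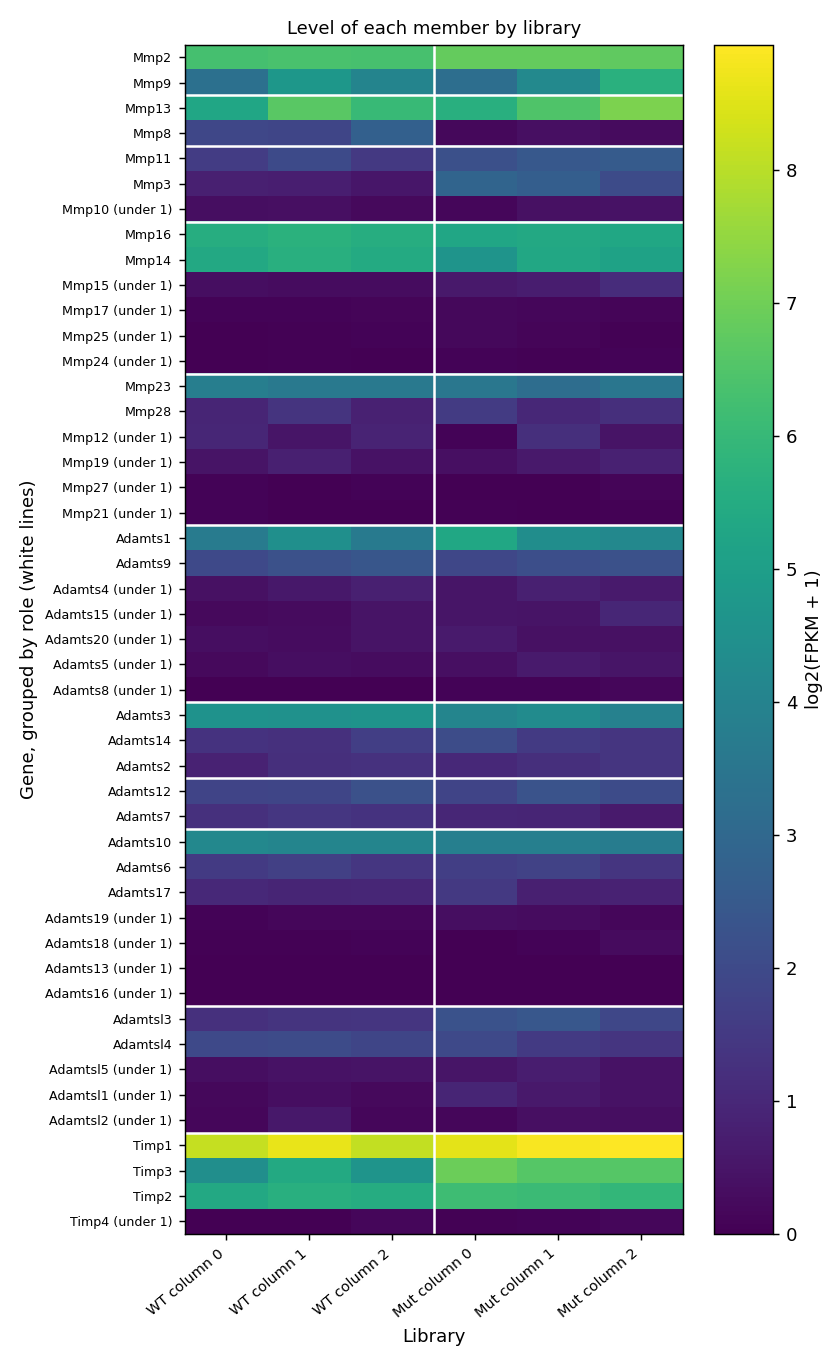
Heat map of log2(FPKM + 1) for all 47 genes (rows, grouped by role between white lines) in the 3 wild-type and 3 mutant libraries (columns), with genes whose mean was under 1 FPKM marked. Timp1 is the brightest row in every library, and the rows of Timp3 and Mmp3 brighten and that of Mmp8 darkens from the wild-type to the mutant columns.

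The inhibitors made up the largest part of the summed signal of the family. Timp1, Timp2, Timp3 and Timp4 together held 344, 493 and 350 FPKM across wild types against 573, 618 and 647 FPKM across mutants. The groups did not overlap. Their share of the summed level of all 47 genes was 52.7 ± 2.11% for wild types against 60.4 ± 1.88% for mutants. The ratio of the Timp total to the Mmp total was 1.42 ± 0.109 against 1.92 ± 0.298. Timp1, at 322 ± 69.9 and 443 ± 56.4 FPKM, held the largest part of the Timp total (81.4 ± 1.06% and 72.1 ± 4.96%). Its own groups overlapped and it did not pass.

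Timp3, which encodes the inhibitor that is held in the matrix, measured 20.4, 41.7 and 23.8 FPKM across wild types against 121, 94.6 and 96.0 FPKM across mutants. Every mutant library lay above every wild-type library, and wild-type column 1 stood above its group. The mean rose 3.63-fold, from 28.6 ± 11.4 to 104 ± 15.1 FPKM (log2 fold change 1.88, SE 0.274, limma adjusted p = 0.024). Its part of the Timp total went from 7.06 ± 1.29% to 17.1 ± 3.54%. The gene (chromosome 10, 86300372 to 86349506, forward strand) overlaps Syn3 on the opposite strand, which was at 0.0553 ± 0.0167 and 0.113 ± 0.0380 FPKM. Timp3 did not pass when wild-type column 0 or 2 was left out or any mutant column was (adjusted p = 0.077, 0.094, 0.054, 0.067 and 0.086), and without wild-type column 1 it did (adjusted p = 0.0078).

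Timp2, the inhibitor that also helps the membrane enzyme encoded by Mmp14 to activate the proenzyme of Mmp2, measured 40.8, 48.7 and 45.4 FPKM across wild types against 70.5, 66.7 and 59.7 FPKM across mutants. The groups were separated by more than their spread. The mean rose 1.46-fold, from 45.0 ± 3.96 to 65.6 ± 5.47 FPKM (log2 fold change 0.53, SE 0.0985, limma adjusted p = 0.040). Timp2 (chromosome 11, 118301069 to 118355740, reverse strand) overlaps a gene on its own strand that the table lists as BC100451, which rose from 1.97 ± 0.173 to 4.43 ± 1.16 FPKM (adjusted p = 0.045), and reads shared by the pair cannot be told apart here. Timp2 did not pass without any 1 of the libraries, with adjusted p = 0.114, 0.088 and 0.128 when a wild-type column was dropped and 0.072, 0.107 and 0.085 when a mutant column was.

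Timp1 was the most abundant gene of the family and is X-linked (20870166 to 20874735, overlapping Syn1 on the opposite strand, itself at 0.376 ± 0.0175 and 0.537 ± 0.0617 FPKM). It measured 283, 403 and 280.4 FPKM across wild types against 381, 457 and 491 FPKM across mutants. Wild-type column 1 lay above mutant column 0, so the groups overlapped. Means were 322 ± 69.9 and 443 ± 56.4 FPKM, and the gene did not pass (log2 fold change 0.47, SE 0.181, adjusted p = 0.18). Timp4 was at 0.0431 ± 0.0544 and 0.0669 ± 0.0352 FPKM and was not tested.

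**Figure D2:**
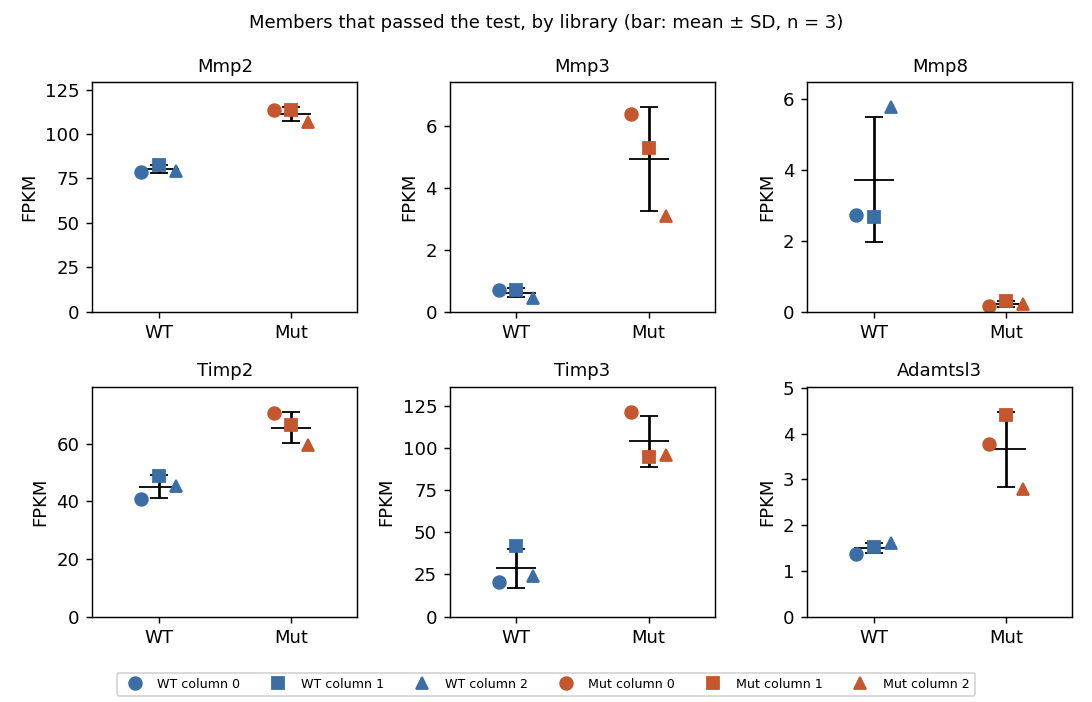
FPKM of the 6 genes that passed the test in each library (blue wild type, orange mutant, symbol by column number), with the mean and SD of 3 libraries as bars. In each panel the 3 mutant points lie wholly above or, for Mmp8, wholly below the 3 wild-type points, with Timp3 at 94.6 to 121 FPKM in mutant libraries against 20.4 to 41.7 FPKM.

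Gelatinases cut denatured collagen and basement membrane components. Mmp2 (chromosome 8, 92827291 to 92853420) measured 78.7, 82.8 and 79.2 FPKM across wild types against 114, 114 and 107 FPKM across mutants. Libraries of a group lay close together. The mean rose 1.39-fold, from 80.2 ± 2.22 to 111 ± 3.83 FPKM (log2 fold change 0.47, SE 0.0631, limma adjusted p = 0.020). Without wild-type columns 0, 1 and 2 the adjusted p was 0.080, 0.070 and 0.094, without mutant columns 1 and 2 it was 0.064 and 0.064, and without mutant column 0 Mmp2 still passed (adjusted p = 0.039).

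Mmp9 encodes the other gelatinase, which osteoclasts and related cells make at the front where cartilage is resorbed. Its values were 8.87, 25.9 and 15.2 FPKM across wild types against 8.38, 17.4 and 50.6 FPKM across mutants, a range that was wider within groups than between them (16.7 ± 8.60 and 25.5 ± 22.2 FPKM, adjusted p = 0.79). The 8 osteoclast markers summed to 61.0, 93.6 and 87.0 FPKM and to 83.3, 114 and 272 FPKM in the same order, none of them was at 0 in a whole group, and none of the 4 that were tested passed. Mutant column 2 was thus highest in both, with the osteoclast phosphatase gene Acp5 at 67.0 FPKM there and 7.71 to 17.5 FPKM in all other libraries. Ctsk, at 186 FPKM in mutant column 2, held the largest part of the sum in every library. Nfatc1 went the other way, at 5.89 FPKM in mutant column 2 and 6.49 to 9.36 FPKM elsewhere, while the other listed markers were highest in that column. The part of these cells in the level of Mmp9 was not tested.

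Collagenases open the intact collagen triple helix. Mmp13, the collagenase of hypertrophic chondrocytes, was the third most abundant member at 68.0 ± 31.1 and 93.3 ± 46.7 FPKM and did not pass (log2 fold change 0.43, SE 0.490, adjusted p = 0.63). Its libraries read 38.6, 101 and 64.8 FPKM across wild types against 49.3, 88.3 and 142 FPKM across mutants. The 7 markers of hypertrophic chondrocytes summed to 1014, 1684 and 1513 FPKM and to 1254, 2689 and 3140 FPKM, so column 0 was lowest within each genotype in both measures. Spp1, at 746 ± 257 and 1673 ± 686 FPKM, held the largest part of that sum in every library. Ihh (11.5 ± 1.70 and 8.08 ± 0.990 FPKM) and Runx2 (12.8 ± 2.18 and 9.61 ± 1.48 FPKM) had lower mutant means. The median log2 fold change of the 7 was -0.076, and none of them passed the test.

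Mmp8, the collagenase best known from neutrophils, had the largest ratio of group means among the 25 tested genes. It measured 2.72, 2.68 and 5.77 FPKM across wild types against 0.147, 0.304 and 0.208 FPKM across mutants, so that wild-type column 2 was highest and the groups lay far apart. The mean fell 17.0-fold, from 3.72 ± 1.77 to 0.219 ± 0.0790 FPKM (log2 fold change -1.89 on the log2(FPKM + 1) scale, SE 0.273, limma adjusted p = 0.023). The summed level of the 8 neutrophil markers was also lower, at 104, 66.2 and 193 FPKM across wild types against 7.04, 0.903 and 3.05 FPKM across mutants. Most of that sum came from S100a8 and S100a9. Of the 3 neutrophil markers tested 2 fell, S100a8 from 47.7 ± 25.5 to 1.67 ± 1.53 FPKM and S100a9 from 67.0 ± 34.7 to 1.47 ± 1.24 FPKM. Ly6g was listed at 0 in all mutant libraries and at 0.277 to 0.538 FPKM in wild-type libraries. The neutrophil elastase gene Elane was listed at 0 in mutant columns 1 and 2. Its groups overlapped, with mutant column 0 at 0.322 FPKM and wild-type column 1 at 0.170 FPKM. Camp, at 0.667 ± 0.519 and 0.318 ± 0.237 FPKM, overlapped as well. The part of neutrophils in the fall of Mmp8 was not tested. Mmp8 did not pass when wild-type column 0 or 1 was left out or any mutant column was (adjusted p = 0.072, 0.068, 0.052, 0.064 and 0.087), and without wild-type column 2 it did (adjusted p = 0.044).

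**Figure D3:**
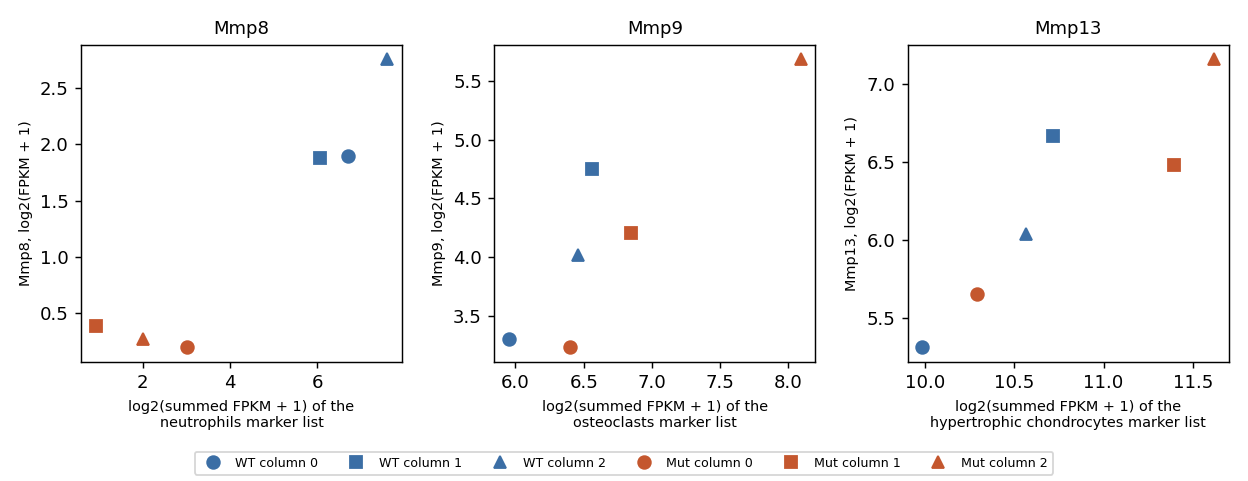
Level of Mmp8, Mmp9 and Mmp13 (vertical axes, log2(FPKM + 1)) against the summed level of the neutrophil, osteoclast and hypertrophic chondrocyte marker lists (horizontal axes, log2(summed FPKM + 1)) in the 6 libraries. For Mmp8 the wild-type points, at marker sums of 66.2 to 193 FPKM, stand apart from the mutant points at 0.903 to 7.04 FPKM, and for Mmp9 mutant column 2 is highest on both axes.

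Stromelysins have a broad range of substrates, proteoglycans among them, and can activate other proenzymes. Mmp3, stromelysin, measured 0.704, 0.691 and 0.452 FPKM across wild types against 6.41, 5.31 and 3.09 FPKM across mutants. The lowest mutant library was above the highest wild-type library by more than the spread of the latter. The mean rose 8.02-fold, from 0.616 ± 0.142 to 4.93 ± 1.69 FPKM (log2 fold change 1.84 on the log2(FPKM + 1) scale, SE 0.241, limma adjusted p = 0.019). It did not pass when any wild-type column or mutant column 1 was left out (adjusted p = 0.072, 0.072, 0.076 and 0.064) and did without mutant columns 0 and 2 (adjusted p = 0.036 and 0.016).

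Mmp11, grouped with the stromelysins although it cuts few matrix proteins, measured 2.04, 3.02 and 1.79 FPKM across wild types against 3.52, 4.51 and 4.87 FPKM across mutants. Groups did not overlap, but the gene did not pass (log2 fold change 0.70, SE 0.179, adjusted p = 0.082). It overlaps Chchd10 on the opposite strand, at 1.91 ± 1.03 and 2.69 ± 0.847 FPKM. Mmp10, the other stromelysin of the chromosome 9 group, was at 0.239 ± 0.0684 and 0.257 ± 0.133 FPKM.

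Along the chromosome 9 group, then, the gene at one end was abundant and did not pass, the third rose, the fifth fell and the rest were low. Mmp12, the macrophage elastase, was at 0.734 ± 0.282 and 0.593 ± 0.650 FPKM, and Mmp27 at 0.0442 ± 0.0393 and 0.0259 ± 0.0448 FPKM. Mmp3 and Mmp8, which changed in opposite directions, are separated by Mmp10 alone, which overlapped between groups. Mmp1b, which the annotation places on the opposite strand and overlapping Mmp12, was not analysed here.

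**Figure D4:**
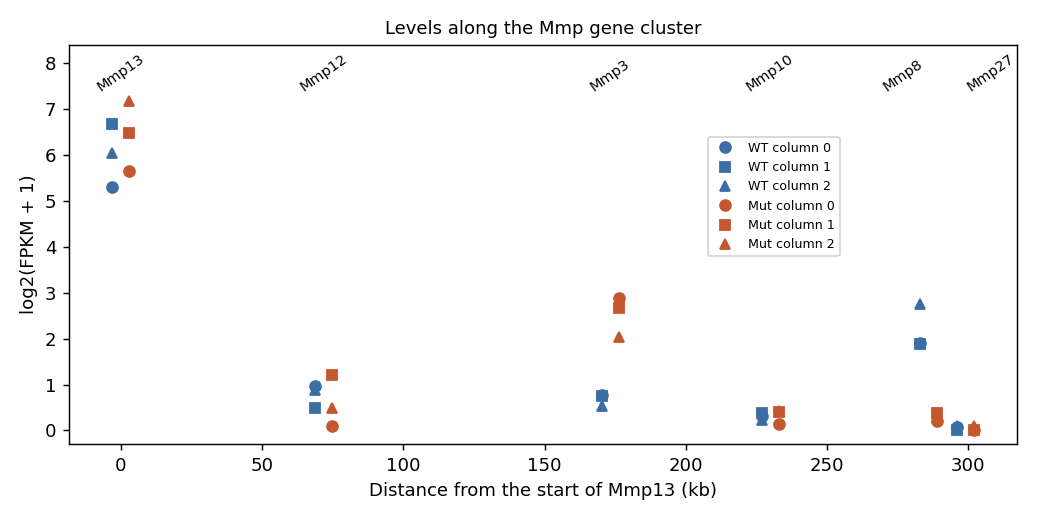
Levels (vertical axis, log2(FPKM + 1)) of the 6 neighbouring Mmp genes at their distance in kb from the start of Mmp13 (horizontal axis), with 1 point per library and the genotypes drawn slightly apart. Mmp13 lies at 38.6 FPKM or more in all libraries, the mutant points of Mmp3 lie above and those of Mmp8 below the wild-type points, and Mmp12, Mmp10 and Mmp27 stay near the bottom.

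Membrane-type MMPs are anchored at the cell surface. The 2 abundant ones, Mmp16 and Mmp14, were lower in mutant libraries without passing. Mmp16 measured 46.7, 50.9 and 46.0 FPKM across wild types against 37.9, 41.6 and 39.4 FPKM across mutants (log2 fold change -0.27, SE 0.0714, adjusted p = 0.092). Mmp14, the collagenase that also activates the proenzyme of Mmp2, measured 40.8, 48.6 and 43.3 FPKM against 24.0, 40.2 and 34.2 FPKM (log2 fold change -0.45, SE 0.193, adjusted p = 0.22). Neither gene overlapped between groups, and mutant column 0 was the lowest for both. Mmp2, which rose, and Mmp14 therefore differed in direction on the measured means. The other 4 membrane-type genes were under 1 FPKM, with Mmp15 at 0.251, 0.227 and 0.214 FPKM across wild types against 0.518, 0.639 and 1.20 FPKM across mutants. Mmp23, an enzyme with an unusual membrane anchor, was at 11.9 ± 1.17 and 9.69 ± 1.38 FPKM (adjusted p = 0.23), and Mmp28, epilysin, at 1.06 ± 0.403 and 1.41 ± 0.463 FPKM (adjusted p = 0.57).

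None of the 10 tested Adamts genes passed in limma, and of these 3 had an unadjusted p under 0.05, all lower, a side on which 12% of all tested genes had one. The 3 were Adamts3, Adamts10 and Adamts7. Adamts7 reached a mean of 1 FPKM through the wild-type libraries alone, so this count is a description. Enzymes that cut aggrecan and versican were mostly scarce. Adamts4 and Adamts5, the main aggrecanases of diseased cartilage, were at 0.506 ± 0.196 and 0.576 ± 0.146 FPKM and at 0.212 ± 0.0497 and 0.420 ± 0.136 FPKM. Adamts1, which shares 108 kb of chromosome 16 with Adamts5 and can also cut both proteoglycans, was far more abundant per length. It measured 12.3, 20.7 and 11.6 FPKM across wild types against 38.7, 20.1 and 16.9 FPKM across mutants, with mutant column 0 alone above all wild-type libraries (log2 fold change 0.68, SE 0.358, adjusted p = 0.30). Adamts9, a versican-cutting enzyme, was at 3.62 ± 0.625 and 3.29 ± 0.489 FPKM (adjusted p = 0.70).

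The enzymes that take the N-propeptide off procollagens were led by Adamts3. It measured 22.7, 22.2 and 23.4 FPKM across wild types against 15.8, 19.1 and 14.3 FPKM across mutants. Groups did not overlap and the wild-type libraries were nearly alike, yet the gene did not pass (log2 fold change -0.46, SE 0.109, adjusted p = 0.068). Without mutant column 1 it did (adjusted p = 0.048). Adamts14 was at 1.67 ± 0.433 and 2.25 ± 0.895 FPKM (adjusted p = 0.53) and Adamts2 at 1.18 ± 0.306 and 1.31 ± 0.296 FPKM (adjusted p = 0.81). Bmp1, the protease that takes off the other propeptide, and Pcolce, its enhancer, both fell, from 30.3 ± 1.28 to 23.2 ± 0.584 FPKM (adjusted p = 0.032) and from 67.9 ± 4.67 to 38.8 ± 7.93 FPKM (adjusted p = 0.042).

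Adamts7 and Adamts12 encode enzymes that can cut the cartilage protein Comp. Adamts7 measured 1.37, 1.64 and 1.49 FPKM across wild types against 0.946, 0.916 and 0.574 FPKM across mutants, without overlap and without passing (log2 fold change -0.47, SE 0.161, adjusted p = 0.15). It overlaps Tbc1d2b on the opposite strand, which rose from 7.29 ± 0.155 to 9.28 ± 0.0652 FPKM (adjusted p = 0.039). Adamts12 was at 3.00 ± 0.616 and 3.19 ± 0.642 FPKM (adjusted p = 0.84). Adamts10, an enzyme associated with fibrillin microfibrils, was at 16.3 ± 0.834 and 13.2 ± 0.581 FPKM, lower in all 3 mutant libraries than in any wild-type library (log2 fold change -0.28, SE 0.0678, adjusted p = 0.071). Adamts6 and Adamts17 were at 1.92 ± 0.282 and 2.06 ± 0.398 FPKM and at 0.973 ± 0.0775 and 1.13 ± 0.605 FPKM (adjusted p = 0.83 and 0.88).

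Among the ADAMTS-like genes Adamtsl3 (chromosome 7, 82335694 to 82614450, forward strand) rose. It measured 1.37, 1.53 and 1.60 FPKM across wild types against 3.77, 4.41 and 2.78 FPKM across mutants. The groups were clearly apart. The mean rose 2.44-fold, from 1.50 ± 0.116 to 3.66 ± 0.821 FPKM (log2 fold change 0.88, SE 0.157, limma adjusted p = 0.037). Without mutant column 2 it passed (adjusted p = 0.047), and when any wild-type column, mutant column 0 or mutant column 1 was left out it did not (adjusted p = 0.120, 0.114, 0.115, 0.073 and 0.089). Adamtsl4, which encodes a protein of fibrillin microfibrils, was at 2.88 ± 0.253 and 2.13 ± 0.706 FPKM (adjusted p = 0.31).

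**Figure D5:**
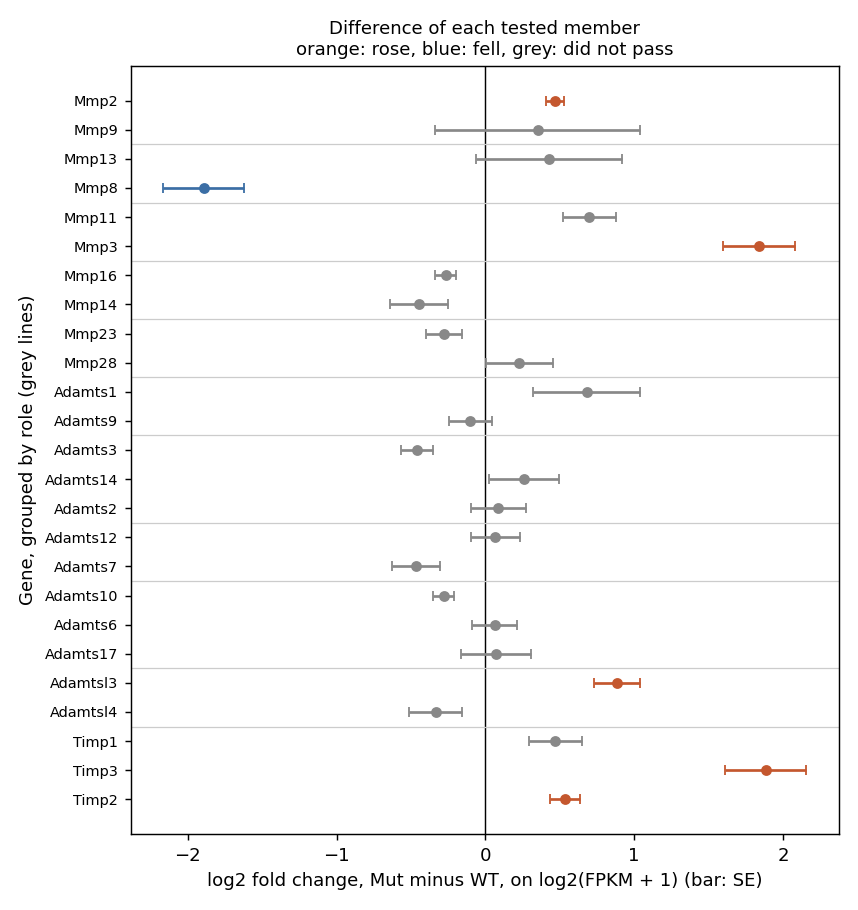
Log2 fold change (mutant minus wild type, on the log2(FPKM + 1) scale, horizontal axis) with its SE for the 25 tested genes, grouped by role between grey lines. Orange points rose, the blue point, Mmp8 at -1.89, fell, and grey points did not pass, with Timp3 at 1.88 and Mmp3 at 1.84 farthest to the right.

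The 22 genes under 1 FPKM had means from 0.00126 FPKM (Adamts16) to 0.664 FPKM (Mmp12). The lowest member above the limit was Adamts17 at 1.05 FPKM. In 8 of the 22 every mutant library exceeded every wild-type library, in none was the reverse seen, and 14 overlapped, while 6.9% and 6.84% of all genes under 1 FPKM were separated upward and downward. The 8 were Mmp15, Mmp17, Mmp24, Adamts5, Adamts8, Adamts15, Adamts19 and Adamtsl1, with Adamtsl1 at 0.191 ± 0.0553 and 0.595 ± 0.283 FPKM and Adamts15 at 0.254 ± 0.106 and 0.590 ± 0.318 FPKM. Fitted without the limit on low values, none of the 22 passed in limma (smallest adjusted p = 0.15), where 1.66% of all genes did, and 7 had an unadjusted p under 0.05, all of them higher. Among all genes under 1 FPKM 4.87% were higher and 5.05% lower by that measure. Adamts16 was listed at 0 in all mutant libraries and in 2 of the 3 wild-type libraries, and gives no comparison.

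With the Y-linked level of each library as a covariate none of the 6 genes passed (adjusted p = 0.081 for Timp3, 0.101 for Timp2, 0.075 for Mmp2, 0.053 for Mmp3, 0.099 for Mmp8 and 0.15 for Adamtsl3). Their log2 fold changes kept the same sign, and in that fit Mmp14 fell (adjusted p = 0.043). The covariate shared an r squared of 0.638 with genotype, and the Y-linked level and genotype cannot be told apart in these libraries.

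Genes that act on the same enzymes were counted in lists, beside which 3.48% of all tested genes rose and 2.59% fell. Of 8 tested genes for other inhibitors and clearance receptors 2 fell and none rose, and neither of the pair inhibits proteases: Pcolce, the enhancer given above, and Serpinf1, a secreted member of the serpin family, from 228 ± 26.0 to 105 ± 18.51 FPKM (adjusted p = 0.022). A2m, a broad plasma protease inhibitor, was at 107 ± 21.7 and 65.8 ± 5.85 FPKM (adjusted p = 0.071). Of 6 activators tested 1 rose, Plaur, the receptor of urokinase, from 4.66 ± 0.855 to 11.2 ± 0.513 FPKM (adjusted p = 0.013), while urokinase itself (Plau) was at 1.25 ± 0.298 and 2.55 ± 0.714 FPKM (adjusted p = 0.12). Of 9 ADAM and astacin proteases Bmp1 alone fell and none rose, and Adam17, which sheds membrane proteins and is inhibited by the product of Timp3, was at 20.3 ± 0.692 and 25.1 ± 2.24 FPKM (adjusted p = 0.10). Of 9 cysteine cathepsins 1 fell, Ctsh, from 16.2 ± 0.694 to 11.7 ± 1.14 FPKM (adjusted p = 0.043).

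Of 17 tested substrates of these enzymes 3 fell (Comp, Matn3 and Dcn), none rose, and the median log2 fold change was -0.33, against -0.0039 over all genes tested. Dcn, decorin, fell from 504 ± 30.0 to 341 ± 31.8 FPKM (adjusted p = 0.040). Of 15 transcription factors known to act on Mmp promoters 2 rose and none fell: Fosl1, a partner of Jun in AP-1, from 0.648 ± 0.489 to 2.91 ± 0.238 FPKM (adjusted p = 0.038) and Ets1 from 27.3 ± 5.18 to 43.5 ± 0.481 FPKM (adjusted p = 0.046). Fosl1 reached a mean of 1 FPKM through the mutant libraries alone. Elf3, a listed factor at 1.32 ± 0.293 and 0.363 ± 0.111 FPKM without overlap between groups, was under that limit and not tested. The counts for this list are therefore descriptions. Fos itself was at 9.73, 8.60 and 14.9 FPKM across wild types against 587, 18.3 and 20.0 FPKM across mutants and did not pass (adjusted p = 0.33). Of 6 relatives and matrix partners of ADAMTS enzymes and TIMP3 Sdc1, a cell surface proteoglycan, rose from 38.6 ± 2.88 to 61.7 ± 7.50 FPKM (adjusted p = 0.032). Over all these lists 4 genes rose and 7 fell, where 3.48% and 2.59% of all tested genes did. Comp and Matn3 are also among the chondrocyte markers that fell. Leaving out wild-type column 0, 1 or 2 gave 1, 3 and 0 genes that rose and none that fell. Leaving out a mutant column gave 3, 1 and 0 that rose and 5, 1 and 1 that fell.

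The count of family members that rose also depended on single libraries, in fits with fewer libraries. It was 0, 1 and 0 when a wild-type column was left out and 2, 0 and 2 when a mutant column was, against 5 with all libraries. The number that fell was 0, 0 and 1 and then 0, 1 and 0, the last 1 being Adamts3. The share of all genes called went from 6.07% to between 1.24 and 4.77% in the same fits. In each of these fits the 6 genes kept the direction of their difference.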

How the data were processed

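FPKM values were used as the authors deposited them, in 1 table with 6 library columns, per the file headers. The submitters' processing notes name STAR, Cufflinks, Cuffdiff and mm10, without versions. The labels' protocols describe stranded, ribosomal RNA-depleted libraries read on a HiSeq instrument and also name CLC Genomics Workbench. Whether counting used the strand is not given in the sources used here. Columns were matched to groups by name. The descriptions number libraries 0, 1 and 3 and the columns 0, 1 and 2, so 4 columns matched a sample and 2 their group only. Separate embryos are not stated for the libraries, so a p-value reflects only variation among these 6, part of which may be technical.

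Read counts were not analysed here. Low values of small RNA genes fell on common steps, whose ratios put wild-type column 0 at 0.987 to 1.44 times the step of the other libraries. If 1 step is 1 read, these ratios give relative depth, but no counting intervals are printed. All 47 genes matched GENCODE M21 (mm10) by identifier, which gave coordinates. Promoter sequences are from RefSeq (GRCm38.p6).

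Values were transformed as log2(FPKM + 1), with a pseudocount of 1. Those genes averaging 1 FPKM or more entered limma 3.58.1 (R 4.3.3), using lmFit and then eBayes with trend=TRUE, two-sided, with Benjamini-Hochberg adjustment over all 14012 genes. Adjusted p-values come from this model, and a gene rose or fell where it was under 0.05. The fit was tested on simulated data. Fold changes in "-fold" are ratios of mean FPKM. With 3 against 3 libraries an exact permutation test cannot go below 0.1 and none is given. Named were Cops5, the members (in full where they passed, by group values or counts otherwise) and, of each related list, genes that passed, up to 3 with the smallest p and up to 2 with the highest mean. Elf3 was named in addition. A listed value of 0 can be a failed estimate. The members and lists were chosen with earlier results of these data known.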

Additional observations from a re-analysis of the deposited data

How the results depend on the processing

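The 5 rises and 1 fall among the members were unchanged with pseudocounts of 0.1 and 0.5, a robust variance prior, quantile normalization and median-of-ratios factors, and without genes at 0 in a whole group. With the replicate block, which tied the columns that share a label number (0 and 1), the same 6 members passed and 3 genes of the related lists fell in place of 7. Same-numbered libraries did not deviate together (r = -0.033 and -0.042), so the numbers are not shown to pair samples. Without the filter on low values 3 members rose, as did 295 genes in all, with 166 lower and 1 and 2 of the related lists higher and lower. With a minimum mean of 5 FPKM 3 members rose and 0 fell, since Mmp3, Mmp8 and Adamtsl3 were not tested there. Library weights gave 816 and 672 genes higher and lower, 7 of the related lists higher, and Mmp11 as a further member. Among protein-coding genes alone 741 and 632 genes were higher and lower, 2 members fell, Adamts3 the second, Mmp11 rose, and 9 and 11 of the related lists were higher and lower. With the summed Y-linked level as a covariate 0 members rose, 315 and 153 genes in all were higher and lower, and 7 and 2 of the related lists. With the log2 of that level, added after seeing the data and sharing an r squared of 0.912 with genotype, 0 members rose and 0 fell, among 25 genes higher and 1 lower in all, with 2 and 0 of the related lists.

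Leaving out 1 library gave 0 to 2 members higher and 0 to 1 lower, 99 to 377 and 66 to 289 genes in all, and 0 to 3 and 0 to 5 of the related lists. Small differences changed sign. Adamts12 ranged from -0.045 to 0.19, Adamts2 from -0.035 to 0.18, Adamts6 from -0.013 to 0.17 and Mmp9 from -0.31 to 0.92 over those fits. With the Y-linked level and its log2 the log2 fold changes were -0.25 and -0.82 for Adamts12, -0.14 and -0.52 for Adamts2, 0.12 and 0.84 for Adamtsl4, -0.51 and -1.72 for Mmp13 and -0.98 and -2.78 for Mmp9, with the log2 level alone 0.21 for Mmp23, and with library weights -0.061 for Adamts17. None of these passed. The cause was not tested. Depth limits the 22 genes under 1 FPKM, for which no fold is given.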

Other observations

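Mutant columns 0 and 2 each held the highest or lowest value of all 6 libraries for several members. Column 2 was highest for Mmp9, Mmp13, Mmp11, Timp1 and Adamts2. It was lowest for Adamts3, Adamts7, Adamts10, Adamtsl4 and Adamts6. Mutant column 0 was highest for Adamts1 (38.7 FPKM), Adamts14 (3.27 FPKM, against 1.36 to 2.17 FPKM in the other libraries), Adamts17 (1.82 FPKM) and Mmp28 (1.92 FPKM). It was also highest for Timp3 (121 FPKM), near the other mutant libraries (94.6 and 96.0 FPKM), and lowest for Mmp14 (24.0 FPKM). Mutant column 0, by genes chosen after their values were seen, held Fosb at 177 FPKM, Junb at 113 FPKM and Jun at 122 FPKM, against at most 7.24, 19.8 and 21.2 FPKM in the other 5 libraries. It also held Y-linked RNA and Xist together.

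Neighbouring Adamts genes differed in level. Adamts15 and Adamts8 lie within 64.7 kb of each other on chromosome 9 and both read low, Adamts8 at 0.0117 ± 0.0110 FPKM in wild-type and 0.0846 ± 0.0300 FPKM in mutant libraries. Adamts13 and Adamtsl2 share 136 kb of chromosome 2 and were at 0.00393 ± 0.00681 and 0.238 ± 0.213 FPKM in wild-type libraries.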
